A study of Homo sapiens with 4 samples.

Results

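The genes examined here were HLA-B, HLA-C, HLA-E and HLA-F, which encode class I heavy chains, B2M, TAP1, TAP2 and TAPBP of the class I assembly line, and RFX5, a transcription factor of HLA promoters. These 9 genes were chosen from measured values of these libraries, among 11931 Ensembl genes with at least 1 alternative splicing event, and were found on the lists by their Ensembl identifiers. All 9 identifiers also fell on the matching RefSeq gene by position in hg38. The genes' own event numbers are therefore given as a description, with no test of the members.

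Full-length cDNA of Huh7, a hepatocellular carcinoma cell line, was read as PacBio Iso-Seq long reads, giving 4 libraries. Cells were grown in DMEM with 10% FBS and transfected through lipofectamine with a negative control siRNA (siNC, replicates 1 and 2) or an siRNA against the deubiquitinase gene STAMBPL1 (siSTAMBPL1, replicates 1 and 2). The labels give no siRNA sequence, no time after transfection and no statement that replicates were separate cultures, so spread between replicates may be technical. Each library has a list of alternative splicing events, and an event is listed or not, with no read number. Libraries are named below in the order siNC 1, siNC 2, siSTAMBPL1 1 and siSTAMBPL1 2.

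MHC class I molecules show peptides from inside the cell to CD8+ T cells. A polymorphic heavy chain (such as HLA-B or HLA-C) or a less variable one (HLA-E, HLA-F) pairs with β2-microglobulin, the product of B2M. TAP1 and TAP2 form the pump that moves peptides into the endoplasmic reticulum, and tapasin, the product of TAPBP, holds empty class I molecules next to that pump. RFX5 is the DNA-binding subunit of the RFX complex, which sits with CREB-family and NF-Y proteins on the SXY module of class II, class I and B2M promoters.

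The upstream windows of 5 of these genes are shown because the HLA-B, HLA-C and B2M windows share letters of that module, which HLA-F shares in part, and because most RFX5 events concern its first exon. They are the 250 bases before the RefSeq start (RefSeq, GRCh38.p14), written 5′ to 3′ along the gene. Capitals mark CCAAT (the Y box bound by NF-Y), TGACG (the core of a CRE as in the X2 box), the interferon element core (GAAA, any 2 bases, GAAA) and TATAAA, each searched on both strands. Capitals run together where 2 matches of the interferon core overlap.
HLA-B, chr6:31357180-31357429, minus strand: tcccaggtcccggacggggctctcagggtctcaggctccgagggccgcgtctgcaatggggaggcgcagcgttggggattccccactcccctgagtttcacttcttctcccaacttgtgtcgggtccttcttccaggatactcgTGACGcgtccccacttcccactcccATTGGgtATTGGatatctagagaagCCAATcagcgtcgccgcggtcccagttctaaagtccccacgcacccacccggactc
HLA-C, chr6:31272093-31272342, minus strand: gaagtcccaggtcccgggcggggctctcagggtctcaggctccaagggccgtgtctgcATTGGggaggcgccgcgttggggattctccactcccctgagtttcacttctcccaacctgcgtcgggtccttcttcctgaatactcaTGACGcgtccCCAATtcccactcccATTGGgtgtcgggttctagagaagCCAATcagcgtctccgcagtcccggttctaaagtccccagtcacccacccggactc
HLA-F, chr6:29723184-29723433, plus strand: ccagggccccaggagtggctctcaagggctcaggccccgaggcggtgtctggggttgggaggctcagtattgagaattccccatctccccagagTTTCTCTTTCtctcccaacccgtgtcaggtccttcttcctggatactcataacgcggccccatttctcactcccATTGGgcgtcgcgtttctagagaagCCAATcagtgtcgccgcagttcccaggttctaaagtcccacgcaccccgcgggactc
B2M, chr15:44711267-44711516, plus strand: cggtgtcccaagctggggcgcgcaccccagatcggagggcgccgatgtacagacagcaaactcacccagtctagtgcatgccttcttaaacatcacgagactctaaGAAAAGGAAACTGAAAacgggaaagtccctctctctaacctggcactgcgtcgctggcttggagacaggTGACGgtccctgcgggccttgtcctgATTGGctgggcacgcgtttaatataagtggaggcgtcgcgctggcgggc
RFX5, chr1:151347253-151347502, minus strand: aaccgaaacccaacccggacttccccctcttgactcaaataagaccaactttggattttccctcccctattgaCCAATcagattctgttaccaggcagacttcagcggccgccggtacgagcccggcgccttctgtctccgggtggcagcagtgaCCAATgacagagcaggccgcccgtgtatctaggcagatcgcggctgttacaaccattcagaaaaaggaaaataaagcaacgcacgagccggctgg

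TGACG and a CCAAT in reverse (ATTGG) stood 25 bases apart in HLA-B and HLA-C and 26 bases apart in B2M, counted between their first bases. In HLA-B the CRE core began 106 bases before the start, in HLA-C 105 and in B2M 75. HLA-B held a further ATTGG 32 bases from its TGACG. The pair at a spacing of 25 to 26 bases was found in 47 of 35116 RefSeq promoter windows (0.13%), on either strand. That spacing was taken from the member windows themselves, so the share is a description and no independent support for a shared module. The HLA-F window held the reverse CCAAT 82 bases before the start and no TGACG. The first RFX5 window held 2 forward CCAAT, at 177 and 95 bases before the start. Across the 8 members with a window, 11 windows in all, CCAAT was found in 6 windows, TGACG in 6, the interferon core in 6 and TATAAA in 1. The shares of all 35116 windows were 32.0%, 21.2%, 3.0% and 10.7%, in the same order. HLA-F, B2M, TAP1, TAP2, TAPBP and RFX5 carried the interferon core, the last in its second window. No binding was measured, and a match is a run of letters only.

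The lists held 94432 to 142215 events per library, with 17584 to 32750 long-read transcripts (identifiers that begin with PB), the fewest in siSTAMBPL1 2. Read depth is unknown. The targeted gene had 3, 6, 1 and 1 events and 1, 4, 0 and 0 PB transcripts. Of 12 hepatocyte markers 2 had any event, among them HNF4A with 8, 6, 0 and 4 events over the libraries. ALB, AFP, APOA1 and SERPINA1 had none on any list, so they could not be used to check the label of the line. Of the other markers, 2 of 6 leukocyte, 1 of 5 fibroblast and 2 of 4 endothelial genes had events, summing to 3, 2, 2 and 4, to 0, 4, 5 and 5, and to 4, 6, 0 and 0. PTPRC, CD3E, COL1A1 and PECAM1 were without any. An absent event is not an absent RNA, since a gene needs forms that differ to be listed.

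The 9 genes had 200, 185, 100 and 127 events, 612 listings of 356 distinct events. RFX5 accounted for 105, 110, 26 and 64 of them. Without RFX5 the numbers were 95, 75, 74 and 63, and the siNC 2 and siSTAMBPL1 1 libraries were almost level. The ratio of the siSTAMBPL1 mean to the siNC mean was 0.59 for all 9 genes and 0.806 without RFX5. Divided by each library's total of events, the ratio for all 9 was 0.80, and divided by its PB transcripts 0.942. For events with Ensembl transcripts in both forms it was 0.983. These ratios count listed events and are no measure of RNA. Fewer cells with these transcripts, less RNA per cell and fewer reads of a library cannot be told apart in such bulk libraries. HLA-E was missing from siNC 1 and siSTAMBPL1 1 and HLA-F from siNC 2, while the other 7 genes were on every list.

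**Figure D1:**
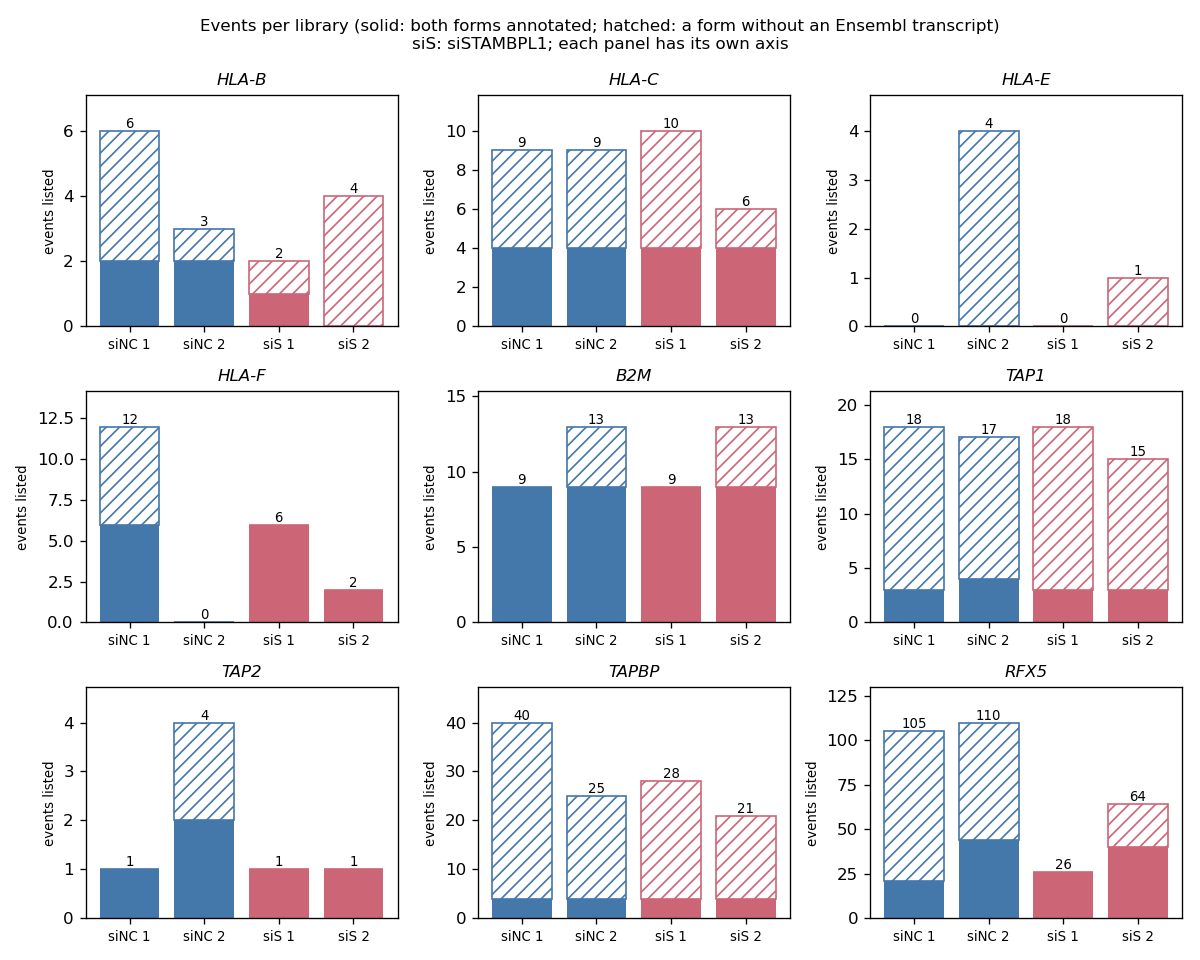
Number of events listed (vertical axis, a separate scale for each gene) in each of the 4 libraries, with solid bars for events whose both forms have an Ensembl transcript and hatched bars for events with a form seen in PB transcripts only. RFX5 has 105 and 110 events in siNC against 26 and 64 in siSTAMBPL1, while TAP1 stays between 15 and 18.

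Of the 356 distinct events, 274 (77.0%, exact 95% interval 72.2 to 81.2%) had a form carried by PB transcripts alone, called unannotated here. Over all Ensembl genes the share was 70.1%. Only 6 of those 274 events were listed in all 4 libraries, against 39 of 82 whose forms both had an Ensembl transcript. These shares, 2.19% and 47.6%, were close to those over all genes, 1.72% and 49.8%. In all, 45 events (12.6%, 9.37 to 16.6%) were in every library and 215 (60.4%) in a single one; over all genes the shares were 16.1% and 65.9%. Alternative first exons made up 54.8% of the distinct member events (49.4 to 60.03%), retained introns 15.4% and skipped exons 7.58%. Over all genes the first exon share was 49.4% and the skipped exon share 18.1%. RFX5 held most of the first exon events: without it they were 45 of 176 (25.6%), and HLA-B, HLA-C, HLA-E, HLA-F and TAP2 had none. The intervals are Clopper-Pearson and cover counting error only. Without RFX5 retained introns were 44 of 176 distinct events (exact interval 18.8 to 32.1%), and over all genes 6.6% of events. TAPBP held 19 of the 44, most of them inside its terminal exon. There the retained form is mostly the whole exon, and the spliced form is an unannotated gap. For the gap of 780 bases, 11 PB transcripts of siNC 1 held the whole exon and 1 was spliced. The share is thus no measure of how often introns were retained. Events of one gene share transcripts and are not independent, so these shares were not tested against each other.

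Among the heavy chains, HLA-C had the most constant list, with 9, 9, 10 and 6 events and 4, 3, 3 and 1 PB transcripts. Its 4 annotated events were in all 4 libraries: the intron of 440 bases at chr6:31269526-31269965, the intron of 119 bases at chr6:31271699-31271817, and 2 pairs of 3′ splice sites that lie 18 and 17 bases apart. Its recurrent unannotated form left out the exon of 120 bases at chr6:31269966-31270085 (hg38), a multiple of 3. In class I heavy chain genes the exon at this place encodes the transmembrane segment, and heavy chains that lack it are known as soluble forms. One PB transcript in each of the 4 libraries carried the skip, so both groups listed it alike. The junction of that skip, an intron of 684 bases, had no Ensembl transcript among the gene's events.

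HLA-C also retained the intron between chr6:31271332 and 31271598 (267 bases) in PB transcripts of siNC 1, siNC 2 and siSTAMBPL1 1, which numbered 2, 1 and 1. Counted from the other splice site of the pair 17 bases apart, the same intron is 250 bases long and was listed in the same libraries. That other site was the one used by spliced PB transcripts (2, 2, 2 and 1), and none used the site of the 267 bases. The siSTAMBPL1 2 library, which lacked both, had a single HLA-C PB transcript. An unspliced stretch from chr6:31269526 to 31270209, the introns on either side of the skipped exon with the exon itself, was listed in both siNC libraries and in neither siSTAMBPL1 library, with 2 PB transcripts in each siNC library. In siSTAMBPL1 1 part of it, the intron of 124 bases at chr6:31270086-31270209, was retained by 1 PB transcript.

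HLA-B had 6, 3, 2 and 4 events and 2, 1, 1 and 1 PB transcripts, most of them retained introns (6 of 8 distinct events). The exon of 117 bases at chr6:31355107-31355223, the counterpart of the HLA-C exon by its place in the gene, was a skipped exon event in siNC 1, siNC 2 and siSTAMBPL1 1. Here the skip has an Ensembl transcript. The PB transcripts included the exon in siNC 1 and siNC 2 and left it out in siSTAMBPL1 1, with 1 transcript each. An intron of 106 bases at chr6:31354527-31354632 was retained by 1 PB transcript in each of siNC 1, siNC 2 and siSTAMBPL1 1, a form without an Ensembl transcript. The annotated retained intron of 245 bases at chr6:31356443-31356687 was listed in both siNC libraries and in neither siSTAMBPL1 library.

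HLA-E, the ligand of CD94/NKG2 receptors of NK cells, had 0, 4, 0 and 1 events, all of them with an unannotated form. Its PB transcripts numbered 0, 4, 0 and 1. The event found in siNC 2 and siSTAMBPL1 2 used a 3′ splice site 74 bases from the other, with 1 PB transcript in each. HLA-F had 12, 0, 6 and 2 events and 2, 0, 0 and 1 PB transcripts. Its 6 unannotated events were all in siNC 1. They included skips of exons of 51 and 33 bases, which differ by the 18 bases between the splice sites at chr6:29725993 and 29726011. That splice site pair and one 5 bases apart were listed in siNC 1, siSTAMBPL1 1 and siSTAMBPL1 2. Heavy chain genes are near copies of each other and vary between people, and the labels do not say how reads were assigned among them, so the events of these 4 genes are uncertain.

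B2M had 9, 13, 9 and 13 events. Its 9 annotated events, made up of 6 alternative first exons, 2 retained introns and 1 pair of 3′ splice sites 11 bases apart, were listed in all 4 libraries. The retained introns were 54 bases (chr15:44715459-44715512) and 627 bases (chr15:44715702-44716328) long. The shorter one lies within the exon at chr15:44715423-44715701, which 1 PB transcript each of siNC 2 and siSTAMBPL1 2 held whole. The 4 further events in siNC 2 and in siSTAMBPL1 2 came from 1 PB transcript each, the only ones of the gene. Both transcripts left out the exon of 28 bases at chr15:44716329-44716356, which is not a multiple of 3, through a junction that spans 1905 bases and has no Ensembl transcript. The form was thus seen once in each group, and siNC 1 and siSTAMBPL1 1 had no B2M PB transcript that could carry it.

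**Figure D2:**
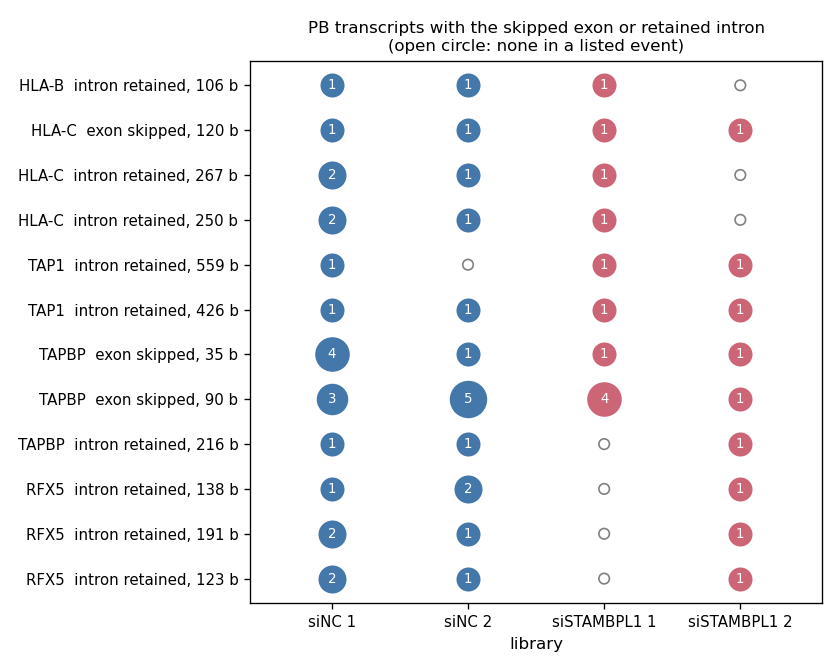
Number of PB transcripts (digits and circle area) that carry each unannotated exon skip or intron retention listed in at least 3 libraries, by library, with the length of the exon or intron in bases. Only PB transcripts of the event itself are counted. The HLA-C skip, the TAP1 intron of 426 bases and both TAPBP skips have a transcript in all 4 libraries, and the RFX5 introns have none in siSTAMBPL1 1.

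TAP1 had 18, 17, 18 and 15 events and 5, 4, 6 and 4 PB transcripts. Of its 46 distinct events 42 had an unannotated form. The intron of 426 bases at chr6:32850518-32850943, a multiple of 3, was a retained intron event in all 4 libraries. Within that event 1 PB transcript of each library retained it and 3, 1, 2 and 0 spliced it out, and no Ensembl transcript retained it. In siSTAMBPL1 1 another event listed 1 PB transcript that retained it in a longer exon. PB transcripts of siSTAMBPL1 2 in other events also ran through it, so 1 per library is not the full number. The intron of 559 bases at chr6:32848093-32848651 was retained by 1 PB transcript in siNC 1, siSTAMBPL1 1 and siSTAMBPL1 2. By contrast the retention of the 308 bases at chr6:32847205-32847512 is annotated, and of the PB transcripts that cover it 5, 3, 5 and 4 were spliced there and 0, 1, 0 and 0 were not.

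First exons made up 29 of the 46 distinct TAP1 events. All 18 PB transcripts in these events used the splice site at chr6:32853039, and their outer ends lay from 367 bases upstream to 32 bases downstream of the RefSeq start, with a median 25 bases upstream. None ended at the base of an Ensembl transcript. When first exons were told apart by splice site and not by outer end, the TAP1 events numbered 10, 9, 10 and 7. TAP1 was the 1 member whose scaled event number was higher in both siSTAMBPL1 libraries than in both siNC libraries, with log2 values of 4.08, 3.99, 4.30 and 4.37 over the libraries on the log2(scaled events + 1) scale. Unscaled, the groups overlapped.

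TAP2, the partner of TAP1, had 1, 4, 1 and 1 events. The pair of last exons whose outer ends lie at chr6:32821833 and 32825415 was listed in all 4 libraries without a PB transcript. The gene's only PB transcript, in siNC 2, retained an intron of 2329 bases at chr6:32832825-32835153.

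TAPBP had the most PB transcripts of the 9 genes, 22, 14, 18 and 10, and 40, 25, 28 and 21 events. The libraries of both groups overlapped. Of its 76 distinct events 72 had an unannotated form and 56 were in a single library. A skip of the exon of 35 bases at chr6:33303955-33303989, not a multiple of 3, was carried by 4, 1, 1 and 1 PB transcripts, while 9, 7, 10 and 4 included the exon. Further PB transcripts joined the terminal exon past that exon and the next one upstream, 90 bases at chr6:33304128-33304217. These numbered 3, 5, 4 and 1. Neither junction into the terminal exon, of 2356 and 2525 bases, had an Ensembl transcript among the TAPBP events, and both were in every library.

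Annotated TAPBP exons were also listed as skipped exon events in all 4 libraries, through Ensembl transcripts of both forms, while the PB transcripts mostly carried 1 form. The exon of 54 bases at chr6:33308105-33308158 was included in no PB transcript and left out in 20, 14, 16 and 7. The exon of 261 bases at chr6:33313217-33313477 was included in 13, 8, 12 and 5 and left out in 1, 0, 0 and 0. The exon of 171 bases at chr6:33313694-33313864 was included in 14, 8, 12 and 8 and left out in 2, 2, 2 and 1. All 3 lengths are multiples of 3. In both siNC libraries and neither siSTAMBPL1 library, that last exon was extended to chr6:33313588 as an exon of 277 bases that could be skipped, with 1 and 2 PB transcripts. The intron of 110 bases beside it, chr6:33313478-33313587, was a retained intron event in the same libraries, although its junction was also seen in 1 PB transcript of siSTAMBPL1 1. TAPBP held 26 of the 46 junctions of the 9 genes that had no Ensembl transcript, and 19 of the 26 were in 1 library only.

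RFX5 had 105, 110, 26 and 64 events and 10, 11, 1 and 6 PB transcripts. As listed, both siSTAMBPL1 libraries were below both siNC libraries in each number. On the log2(scaled events + 1) scale the libraries were at 6.55, 6.60, 4.81 and 6.41, a mean difference (siSTAMBPL1 minus siNC) of -0.97 with a standard error of 0.595. The siSTAMBPL1 libraries differed from each other by more than siSTAMBPL1 2 differed from siNC. Events with Ensembl transcripts in both forms numbered 21, 44, 26 and 40, and there the groups overlapped. The whole separation lay in events with an unannotated form, 84, 66, 0 and 24. The siSTAMBPL1 1 library had no such event and 1 RFX5 PB transcript. The siSTAMBPL1 libraries also had fewer PB transcripts as a whole. With event numbers scaled by the library's PB transcripts the RFX5 groups overlapped, and the mean difference was -0.76 (standard error 0.656). Without siSTAMBPL1 1 the difference scaled by events was -0.17, and without siSTAMBPL1 2 it was -1.77, so its size rests on siSTAMBPL1 1.

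**Figure D3:**
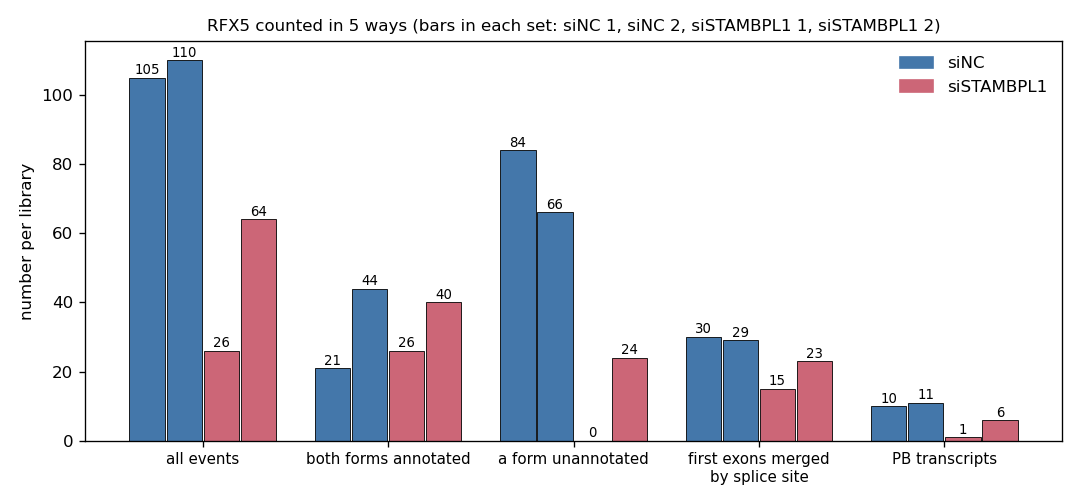
Number per library (vertical axis) of RFX5 events and PB transcripts under 5 ways of counting, with bars in the order siNC 1, siNC 2, siSTAMBPL1 1 and siSTAMBPL1 2. All events number 105 and 110 in siNC against 26 and 64 in siSTAMBPL1, while events annotated in both forms (21, 44, 26 and 40) overlap between the groups.

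Alternative first exons made up 150 of the 180 distinct RFX5 events, 80, 87, 16 and 46 per library. They rest on 4 first splice sites, at chr1:151346755, 151346940, 151347151 and 151347211. The site at 151347211 was used by 9, 8, 0 and 5 PB transcripts, the site at 151346755 by 1 in each library, the site at 151347151 by 2 of siNC 2 only, and the site at 151346940 by Ensembl transcripts only. Events are told apart by every coordinate, so an outer end that differs by a single base is listed again, once for each first exon it is paired with. Counted by splice site alone, first exon events numbered 5, 6, 5 and 5 and all RFX5 events 30, 29, 15 and 23.

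The RFX5 events listed in both siNC libraries and in neither siSTAMBPL1 library numbered 29, and 24 of them were first exons. All 24 came from 3 outer ends of PB transcripts that use the site at 151347211, each paired with 8 first exons. The ends lay 3 bases downstream of the RefSeq start, at that start and 13 bases upstream. The nearest end of a siSTAMBPL1 PB transcript with the same splice site lay 1, 1 and 11 bases away. The siSTAMBPL1 2 library thus listed first exons with the same splice site and neighbouring ends as separate events. No member event was listed in both siSTAMBPL1 libraries and in neither siNC library. The siNC lists were also longer as a whole, with 140317 and 142215 events against 119505 and 94432. The share of siNC-only events over all genes was not computed, for RFX5 or for HLA-B, HLA-C and TAPBP.

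Over the 4 libraries, 14 of the 28 RFX5 PB transcripts ended within 10 bases of the first RefSeq start (chr1:151347252), and the median lay 1.5 bases downstream. Exactly at that base ended 1 and 3 PB transcripts of the siNC libraries. The single RFX5 PB transcript of siSTAMBPL1 1 ended 396 bases downstream, at chr1:151346856, which is the start of the third RefSeq window of the gene. One PB transcript of siNC 2 and 1 of siSTAMBPL1 2 ended at the same base. The upstream splice site was therefore absent from the PB transcripts of siSTAMBPL1 1 and the downstream one was present in all 4 libraries.

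**Figure D4:**
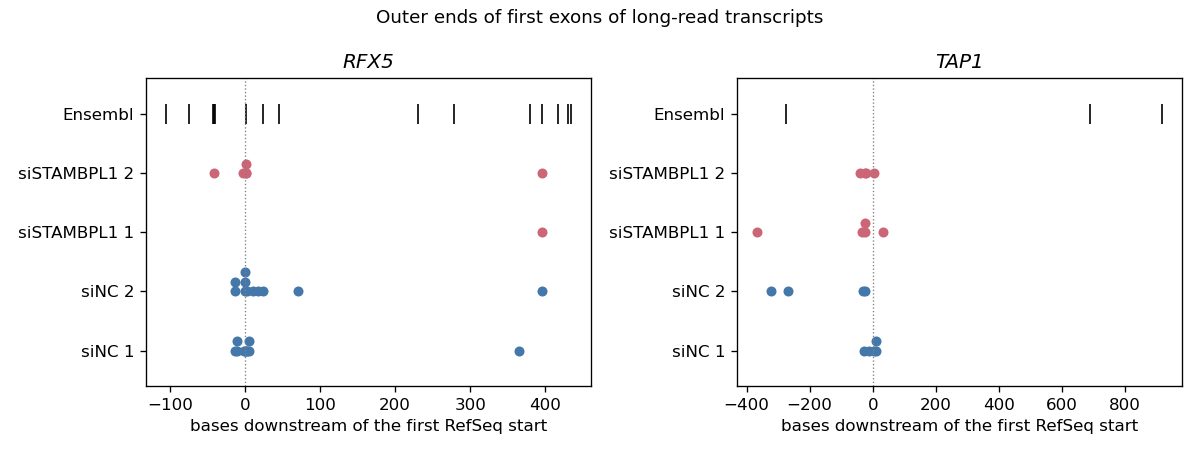
Outer ends of the first exons of PB transcripts of RFX5 (left) and TAP1 (right), as bases downstream of the first RefSeq start (horizontal axis, negative values upstream), 1 point per transcript and 1 line per library, with Ensembl ends as ticks. RFX5 ends gather at 0 in siNC 1, siNC 2 and siSTAMBPL1 2, with 1 end at 396 in each of siNC 2, siSTAMBPL1 1 and siSTAMBPL1 2.

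The remaining siNC-only RFX5 events were 2 skipped exons and 3 pairs of 5′ splice sites. The exon of 34 bases at chr1:151345928-151345961, or 30 bases from its other 3′ splice site, was left out by 1 and 3 PB transcripts of siNC 1 and siNC 2, a form without an Ensembl transcript. In siNC, 6 and 8 PB transcripts included the longer version. The named 5′ splice site pairs are annotated and lie 60 and 3 bases apart, at chr1:151346422 and 151346482 and at 151346482 and 151346485. The site at 151346482 was used by 2 and 1 siNC PB transcripts and by none of siSTAMBPL1. An unannotated 3′ splice site at chr1:151344604, which lengthens its exon by 68 bases over the annotated site at 151344536, was used by 2, 3, 0 and 2 PB transcripts. The introns of 191 bases (chr1:151344537-151344727) and 138 bases (chr1:151344279-151344416) were retained in siNC 1, siNC 2 and siSTAMBPL1 2. In all 4 libraries the annotated exon of 158 bases at chr1:151345286-151345443 was an event, left out by 7, 8, 1 and 6 PB transcripts and included by 1 of siNC 1. So was the exon of 12 bases at chr1:151346755-151346766, which no PB transcript included.

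Across the 9933 genes with at least 5 events, limma called no gene higher (0%) and none lower (0%) at a Benjamini-Hochberg adjusted p under 0.05, while before adjustment 293 genes were higher and 434 lower at the same threshold. Scaled event numbers did not overlap between the groups, with siSTAMBPL1 higher, in 23.0% of these genes, and lower in 15.0%. Of the 9 members, 1 (TAP1) was higher and 1 (RFX5) lower, and 7 overlapped. Neither share of the members was above that of all genes. With numbers scaled by PB transcripts HLA-C and TAP1 were higher and no member was lower, while 30.7% of all genes were higher and 10.6% lower. With first exons told apart by splice site no member was separated, while 22.8% of 9865 genes were higher and 15.5% lower. The log2 difference was below 0 for 4 members and above 0 for 5, with a median of 0.03 against 0.05 for all genes tested. Differences of the other 8 ran from -0.48 for HLA-E (standard error 1.029) to 0.59 for HLA-F (standard error 1.316).

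Other genes of the pathway were read from a list of 52, of which 37 had an event and 35 were tested. limma called 0 of the 35, against 0% of all genes in either direction. Scaled numbers were higher in both siSTAMBPL1 libraries for 8 of the 35 and lower in both for 7, beside 23.0% and 15.0% of all genes. Their median log2 difference was 0.10. The chaperone gene CANX had 75, 99, 74 and 54 events and NLRC5, the transactivator of class I promoters, 46, 62, 38 and 19. PSME3, a proteasome activator, had 26, 29, 47 and 17, and the methyltransferase gene EZH2 40, 33, 20 and 17. NFYC, which encodes an NF-Y subunit, had 35, 28, 23 and 24. The NF-κB subunit genes RELA and NFKB1 had 21, 29, 20 and 20, and 24, 9, 19 and 21. NLRC5 and EZH2 were lower in both siSTAMBPL1 libraries after scaling, and the other 5 of these genes overlapped. The class II gene HLA-DRA, its partner CD74 and the class II transactivator CIITA had no event on any list.

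By Euclidean distance over the 4 log2 values, the genes most like RFX5 among those tested were XPO1, LIMCH1 and CNOT2, at distances of 0.502, 0.568 and 0.828. XPO1 had 76, 97, 25 and 61 events, LIMCH1 96, 107, 32 and 46, and CNOT2 71, 95, 33 and 46. Each had its lowest raw number in siSTAMBPL1 1.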

How the data were processed

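The authors deposited, per the file headers, 1 list of alternative splicing events per library, with gene, event coordinates, the transcripts of the first form and those of both forms; the lists hold no counts or other quantity. Coordinates are those of hg38, as the submitters' processing notes name it. Which aligner, transcript caller and event caller the authors ran is not given in the sources used here. Members and lists were chosen with earlier results of these data known. Symbols came from RefSeq (GRCh38.p14) by position, for 10735 of 11931 Ensembl genes. Members were all described, and for each member up to 4 events of each of 3 kinds were named: listed by both libraries of 1 group only, unannotated in at least 3 libraries, and annotated in all 4; others were chosen after their values were seen. The number of events per gene, for genes with 5 events or more in all, was scaled to the mean library total. The log2 of the scaled number plus a pseudocount of 1 was fitted with limma 3.58.1 in R 4.3.3 (lmFit, eBayes with trend, Benjamini-Hochberg at 0.05), after a test on simulated data. Fold differences on this scale understate changes of genes with few events. Same-numbered libraries deviated from their group means with a correlation of 0.019 over 9933 genes. Alternatives changed the scaling, pseudocount, filter, events used and libraries. Values of some list genes are not reported here.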

Additional observations from a re-analysis of the deposited data

How the results depend on the processing

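The number of genes called by limma stayed at 0 without scaling, with scaling by PB transcripts, a pseudocount of 0.5, no filter, events with a PB transcript only, first exons told apart by splice site (chosen after seeing the data), and without each library, with 510 to 1373 genes at an unadjusted p under 0.05. With Ensembl transcripts in both forms it was 11, of which 4 were higher (YPEL4, NRG1, ATXN3 and ARLNC1, named after their values were seen) and 7 lower, none a member. The labels share replicate numbers only, and with the replicate block the number called was 0, with 557 at an unadjusted p under 0.05. Members whose libraries did not overlap numbered 2, but 1 without scaling and 0 with first exons told apart by splice site. Scaled by PB transcripts they numbered 2 (HLA-C and TAP1, both higher, in place of TAP1 and RFX5). With Ensembl transcripts in both forms 4 of 8 members did not overlap, 3 higher and 1 lower. HLA-C, B2M and TAPBP listed 4, 9 and 4 such events in every library, so they were higher only through scaling. The share of all genes was not computed in that setting or without scaling. The counts of 4 and 1 therefore cannot be read as particular to the members. The member ratio of 0.59 became 0.80 scaled by all events, 0.942 scaled by PB transcripts, 0.983 with Ensembl transcripts in both forms, 0.806 without RFX5 and 0.726 with first exons told apart by splice site; leaving out 1 library gave 0.519 to 0.66. The share of events in all 4 libraries, 12.6%, was 20.0% with coordinates within 10 bases, 5.9% for events with a PB transcript, 47.6% with Ensembl transcripts in both forms and 22.0% with first exons told apart by splice site. The first exon share, 54.8%, was 47.5% among events in at least 2 libraries, and 50.7 to 55.8% without 1 library. The RFX5 difference ranged from -1.77, without siSTAMBPL1 replicate 2, to 0.25, with Ensembl transcripts in both forms, and was -0.17 without siSTAMBPL1 replicate 1, -0.76 scaled by PB transcripts and -0.32 with first exons told apart by splice site. Of 103 member values under alternatives, 91 moved by less than the spread between replicates and 16 changed sign. Leaving out 1 library of a group moves the difference by an amount set by that same spread. Those settings therefore cannot show that a value is stable. The HLA-F difference of 0.59 was 2.31 without siNC replicate 1 and -1.17 without siNC replicate 2. Both counted as within the spread. The causes were not tested. Read numbers are unknown, and whether depth limited which forms were listed was not tested.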

Other observations

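HLA-DMA, which encodes a chain of the class II peptide exchange factor HLA-DM, was on the pathway list, as was ERAP2, a peptide-trimming aminopeptidase of the endoplasmic reticulum; both were singled out after their values were seen. Over the 4 libraries the HLA-DMA events numbered 0, 0, 7 and 7 and the PB transcripts 0, 0, 1 and 1, so each siSTAMBPL1 library had a single one. The log2 difference was 3.20 (standard error 0.409), and the adjusted p from limma over all genes was 0.372. ERAP2 went the other way, with 7, 6, 0 and 0 events, a log2 difference of -2.74 (standard error 0.443) and an adjusted p from limma of 0.391.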
